A study of Homo sapiens with 6 samples.

Results

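Isolated open regions are sites of accessible chromatin that lie far from every site open in all libraries. The 12 peak lists were merged on chromosomes 1 to 22, peaks that overlapped by at least 1 bp being joined, which gave 126189 regions. Of these, 20934 had a peak in all 12 lists and are called constitutive here. A region was a member where both NT lists of at least 1 line had a peak and the nearest constitutive region was more than 250 kb away, edge to edge. This held for 5240 regions, 4.15% of all merged regions and 7.18% of the 72967 regions that were open in both NT lists of a line (NT-open). The members were therefore chosen by their NT peaks, so what follows on the NT lists and on distance describes the choice and is not a finding.

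Chromatin accessibility was measured in 3 human B-cell acute lymphoblastic leukemia lines. The assay was ATAC-seq, where a transposase cuts open DNA and tags the fragments for sequencing. The KMT2A-AFF1 fusion is present in RS4;11 and SEM. The label RCH was taken to stand for RCH-ACV, which is named in the growth protocol. Each line carried either a non-targeted control shRNA (NT) or sh2, an shRNA against NSD2, so that there were 6 samples, 1 per line and shRNA, with no untransduced cells among them. The level of NSD2 was not analysed here. The labels give neither the time after transduction nor clones, and the NSD2 mutation in the series title is not assigned to a line in them. Each sample had 2 lists, treated as libraries 1 and 2. Whether they came from separate cultures is not stated, so their spread may be technical. The lists held 40506 to 81527 autosomal peaks, RCH sh2 having the shortest and RS4;11 NT the longest. Each peak came with 1 value, read as fold enrichment over the background of its own list. These values are not normalized between lists, so they are compared below as percentiles within a list (0 for the weakest peak and 100 for the strongest).

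NSD2 is a histone methyltransferase that places dimethylation on lysine 36 of histone H3. The mark is laid down in broad domains that include much intergenic chromatin, and it counteracts the Polycomb mark on lysine 27. Gene-poor stretches of human chromosomes tend to be compact, late replicating and bound to the nuclear lamina. Open sites far from promoters are commonly enhancers, insulators bound by CTCF, or promoters of tissue-restricted genes. Which of these the members are was not analysed here, since no annotation or sequence of the build of the files was used.

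The word isolated fits these regions only with respect to constitutive sites. The distance to the nearest constitutive region ran from 250.04 to 3414 kb with a median of 396.7 kb. It exceeded 500 kb for 1723 members (32.9%) and 1000 kb for 309 (5.90%). Some other merged region, open in any list, lay much closer, at a median of 8.65 kb, against 4.35 kb for the 46793 NT-open regions within 250 kb of a constitutive one (non-isolated, constitutive regions left out). Only 51 members (0.973%) had no merged region within 100 kb. Members were as wide as non-isolated regions, with medians of 439 and 438 bp, and constitutive regions had a median of 836 bp. Merged width grows with the number of lists that contribute.

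Few members were NT-open in all lines, which is partly set by the rule, since a region with a peak in all 12 lists cannot be a member. A peak in both NT lists of 1 line only was found for 3144 members (60%), of 2 lines for 1459 (27.8%) and of all 3 lines for 637 (12.2%). Non-isolated regions, from which constitutive regions are also left out, gave nearly the same split, with 56.7%, 31.6% and 11.7%. RS4;11 contributed 4127 members, RCH 2132 and SEM 1714, and these counts overlap. Their share of the NT-open regions of the line was 6.81%, 5.23% and 4.09%. The NT lists of RS4;11 were the longest, with 71463 and 81527 peaks, against 54740 and 55364 in RCH and 52301 and 53475 in SEM. With all 12 lists cut to the 40506 strongest peaks, 2510 of 3965 members were open in RS4;11, 1992 in RCH and 1749 in SEM. The order of the lines stayed the same, and the excess of the first was smaller. Leaving out 1 NT library, which asks for a peak in 1 NT list of its line and for constitutive regions in 11 lists, gave 6740 members in RS4;11 without NT library 2. In RCH it gave 3450 without NT library 1 and 3727 without NT library 2.

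**Figure D1:**
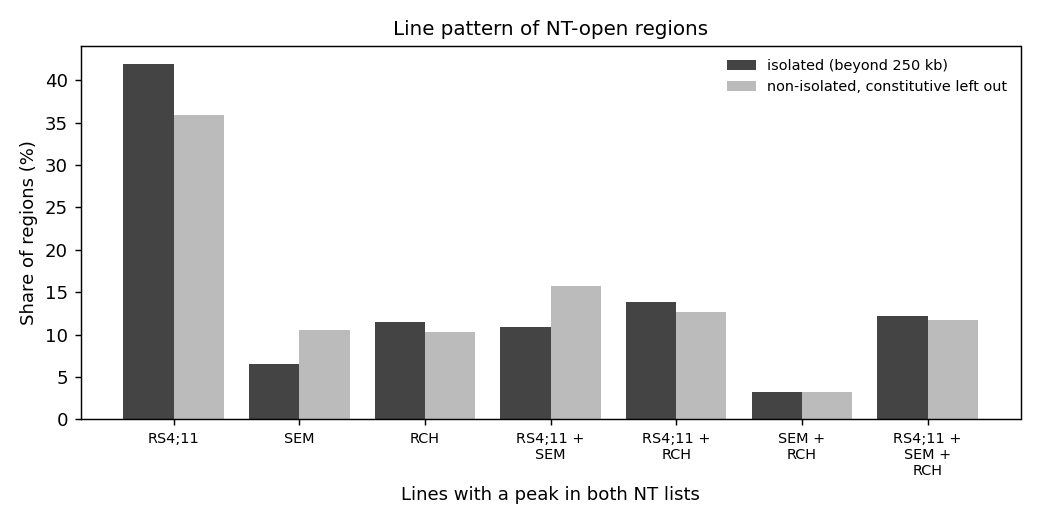
Share of NT-open regions (y axis, %) by the lines with a peak in both NT lists (x axis), for the 5240 isolated regions (dark bars) and the 46793 non-isolated regions (light bars). Regions open in RS4;11 alone make up 41.97% of the isolated and 35.9% of the non-isolated regions, and those open in SEM alone 6.51% and 10.5%.

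Regions NT-open in RS4;11 alone were the most frequent class, with 2199 members, and their share of 42.0% was 25.3% with all lists cut to the shortest. RS4;11 and RCH shared 723 members that SEM lacked in at least 1 NT list, and RS4;11 and SEM, the lines with the same fusion, shared 568 that RCH lacked in the same sense. Among non-isolated regions these classes held 5949 and 7346. With all lists cut to the shortest they held 492 and 489 members, and 3336 and 3779 non-isolated regions. The member counts of the pairs were then nearly equal, while non-isolated regions still lay more often in the pair with the same fusion. No peak in any list of the other lines was found for 1111 members of RS4;11 (26.9%), 399 of RCH (18.7%) and 185 of SEM (10.8%). The shares in non-isolated regions were 18.9%, 15.3% and 9.78%. With all lists cut to the same length they were 18.8%, 23.4% and 16.1% for members and 13.3%, 17.6% and 12.6% for non-isolated regions, so that the order of the lines depended on list length. At the other end, 242 members had a peak in 11 lists and missed being constitutive by a single list. That list was RCH sh2 library 2 for 97 of them and RCH sh2 library 1 for 45, and it was never one of the RS4;11 NT lists. The RCH sh2 lists were the shortest and the RS4;11 NT lists the longest. Matching counts for non-isolated regions are not given here, so whether this is particular to members was not tested.

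Members were unevenly spread over the chromosomes. They made up 12.6% of the NT-open regions of chromosome 13, 11.3% of chromosome 4 and 10.7% of chromosome 18, against 1.57% of chromosome 19, 2.03% of chromosome 17 and 2.14% of chromosome 22. Chromosome 4 held most members, 536, and chromosome 22 fewest, 23. Apart from 26 members beyond the outermost constitutive region of a chromosome, they lay between neighbouring constitutive regions. Counting the chromosome ends, 819 such stretches held a member. Of these, 148 held 1 member only, and 176 held at least 10 and together 2881 members (55.0%). Members were thus mostly grouped, with a median of 21.0 kb to the nearest other member.

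The stretch with most members was chr9:19551912-26536943. It was not a stretch poor in open chromatin. SEM had a peak at 88 of its members (87.1%) and RCH at 75 (74.3%), but RS4;11 at only 12 (11.9%). Over the 176 stretches with at least 10 members, the median share of members with a peak was 90.8% for RS4;11, 59.4% for SEM and 57.1% for RCH. Within it, over chr9:19856956-25134359, none of the 4 RS4;11 lists had a peak over 5.28 Mb. In that interval 26 regions were open in all 8 lists of SEM and RCH, and 88 members lay there. Since no region there can have a peak in all 12 lists, the distances of these members follow from the absence of RS4;11 peaks. Whether this line carries the DNA of the interval was not tested. Without this stretch 5139 members remained.

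The next stretches by number of members lay at chr2:192677228-195535628 with 59 members, at chr4:61067323-65024450 with 46, at chr7:82245207-83965331 with 37, and at chr5:103515178-106701217 with 36. RS4;11 had a peak at 91.7% to 94.9% of the members of each. The member of highest mean percentile on the chromosome 2 stretch, chr2:194969366-194969828, was open in 11 lists. Its RS4;11 values were 21.6 and 18.7 with NT and 17.2 and 16.0 with sh2. SEM had 11.4 and 10.4 under NT and 13.8 and 13.4 under sh2, and RCH NT had 9.38 and 10.0. In RCH sh2 only library 1 had a peak (5.91). On the chromosome 5 stretch, the strongest member, chr5:104555674-104556280, was open in RS4;11 alone, NT giving 11.6 and 12.3 and sh2 12.2 and 11.5. The strongest on the chromosome 7 stretch, chr7:83086344-83087054, had peaks in RS4;11 NT alone (9.69 and 11.6). At chr4:62437885-62438298, the strongest of its stretch, the values were 13.9 and 14.3 in RS4;11 NT with no sh2 peak, while SEM had 7.33 and 10.00 with NT and 14 and 12 with sh2. RCH had a single peak there, in NT library 1 (5.34).

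The 5 members farthest from a constitutive region lay on chromosomes 9 and 11. Those on chromosome 9 (chr9:23123116-23123429, chr9:22937670-22937988 and chr9:23258590-23259035) were 3278 to 3414 kb away and inside the interval without RS4;11 peaks. The first of them had values of 5.86 and 8.58 under NT and 9.04 and 8.79 under sh2 in SEM, and 5.84 and 6.49 in the RCH NT libraries, with no RCH sh2 peak. The others were open in SEM only. Those on chromosome 11 (chr11:51580530-51580898 and chr11:51555928-51556262) were 3195 and 3170 kb away. The strongest member of the chromosome 9 stretch, chr9:20683449-20684915, had values of 14.9 and 15 under NT and 17.3 and 16.8 under sh2 in SEM. RCH gave 19.7 and 18.3 under NT and 18.8 and 18.0 under sh2. Its mean percentile over the lists with a peak was 99.3, and it had no peak in RS4;11.

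The strongest members open in both NT lists of all lines lay at chr6:102865095-102865849, at chr13:35416173-35417168, and at chr6:57926701-57927366. Each was open in 11 lists, and in each the missing list was RCH sh2 library 2. In RS4;11 the first reached 19.2 and 18.8 under NT and 14.7 and 15.3 under sh2. SEM had 15.3 and 13.6 under NT and 13.6 and 11.8 under sh2, and RCH NT had 15.5 and 13.2. RCH sh2 library 1 had 4.79. The chromosome 13 region had 23.9 and 20.5, then 19.1 and 13.8, in RS4;11, 13.0 and 13.8, then 12.2 and 10.9, in SEM, and 12.8 and 13.2 in RCH NT, NT being given first. RCH sh2 library 1 had 5.63. In RCH these sites thus had a weak peak in 1 sh2 library and none in the other, while both NT values were above 12. They were picked for high NT percentiles and, as members open in all NT lists, had to lack at least 1 sh2 list. The pattern is therefore partly set by the choice. The same 3 regions are the strongest of the members with the most sh2 lists, since no member open in all NT lists can have all 6.

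Members open in 1 line only reached high percentiles in that line. In RS4;11 the strongest lay at chr8:34280770-34281435 (NT 17.5 and 16.6, sh2 7.33 and 6.76), at chr9:118727228-118727665, with 17.0 and 15.9 and then 8.90 and 7.93, and at chr7:49319509-49319875, with 19.5 and 13.3 and then 6.04 and 11.8. In SEM they lay at chr1:78742745-78743487, chr14:34419762-34420542 and chr9:22446519-22447686. In the first of these NT gave 11.1 and 11.5 and sh2 16.1 and 13.4. In RCH they lay at chr16:35032982-35033737, chr3:62740832-62741349 and chr15:98065132-98065519. The first had 15.6 and 14.3 with NT and 12.2 and 11.4 with sh2, and the second 13.1 and 17.7 and then 9.13 and 6.92. Their mean NT percentiles were 92.9 to 95.9, 86.2 to 89.4 and 93.4 to 96.6 for the lines in that order. These regions were picked for high NT values, so a lower sh2 value is partly set by the choice.

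**Figure D2:**
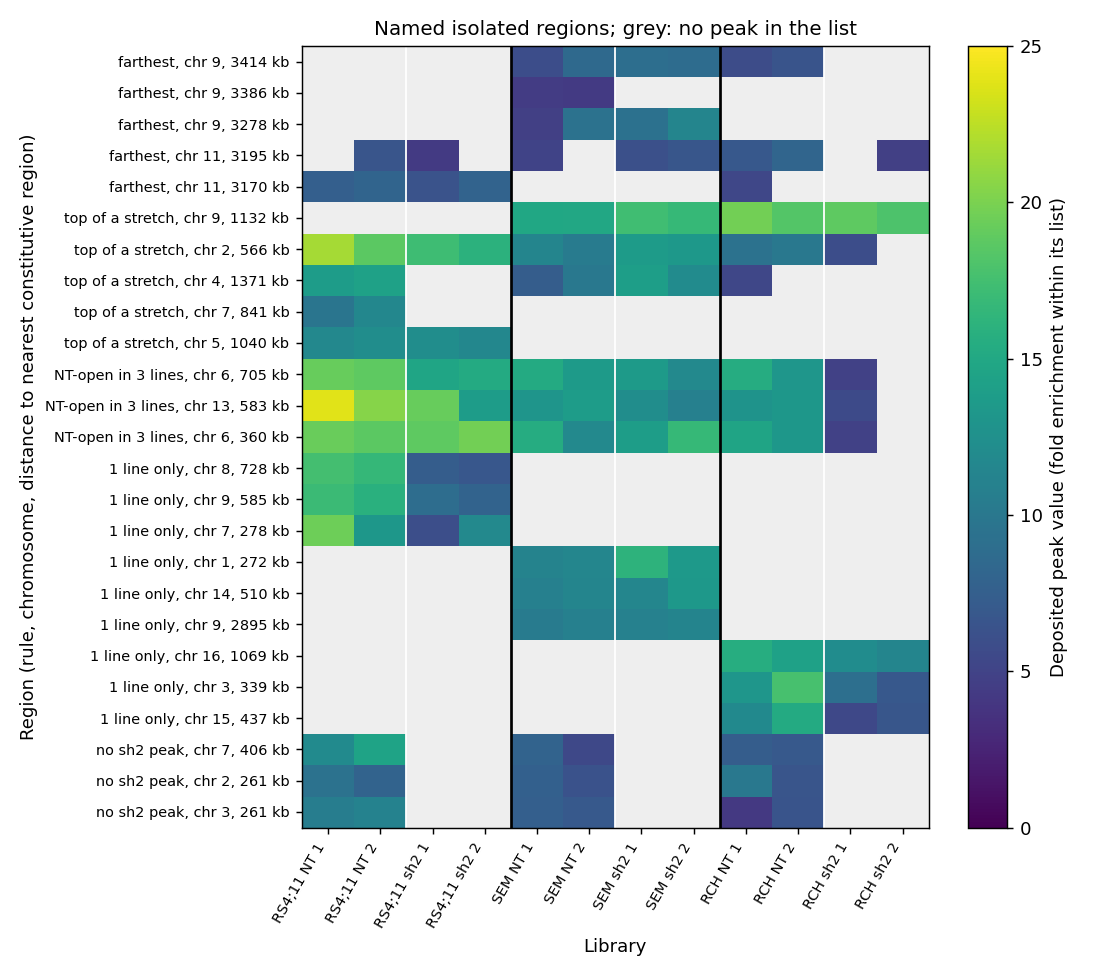
Deposited peak value (colour, fold enrichment within its own list) of the named isolated regions (rows, with the rule that named them, the chromosome and the distance to the nearest constitutive region) in the 12 libraries (columns). Grey marks a list without a peak, values are not normalized between lists, and the regions open in 1 line only form separate blocks.

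The 3 widest members had no peak in RS4;11. That at chr7:113724507-113726850 (2344 bp) was open in all SEM lists with values of 4.79 to 6.24, in both RCH NT lists (6.13 and 5.20) and in RCH sh2 library 1 (3.96). Those at chr14:38063424-38065627 (2204 bp) and at chr4:62065716-62067664 (1949 bp) were open in all 4 SEM lists. The second of the 3 had 7.20 and 6.57 in SEM NT, 8.59 and 7.77 in SEM sh2 and 4.32 in RCH NT library 2.

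At the 250 kb limit itself, the members just inside lay at 250.04 and 250.05 kb and were open in RCH. One, at chr2:141702312-141702557, had 4.58 and 4.09 with NT and no sh2 peak, and the other, at chr21:24083004-24083355, had 8.66 and 8.03 and then 6.20 and 5.00. Just outside, at 249.96 and 249.87 kb, lay regions at chr6:100927367-100927659 and at chr3:62651499-62651834. These were open in 10 and 7 lists.

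The NT and sh2 lists were first compared without the member rule, since that rule takes open regions by their NT peaks. Every peak of a list that lay more than 250 kb from a constitutive region was counted, a territory set in the same way by NT and sh2 lists. In RS4;11 such peaks were 8.34% and 7.64% of the NT lists and 4.28% and 4.35% of the sh2 lists. In RCH the NT shares were 6.93% and 6.42% and the sh2 shares 3.0% and 2.91%. In SEM, NT gave 4.55% and 4.81%, and sh2 gave 5.13% and 5.33%. In no line did NT and sh2 values overlap, and the direction in SEM was the opposite of that in RS4;11 and RCH.

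The sample means were 7.99 ± 0.495% (SD, n = 2 libraries) with NT and 4.31 ± 0.045% with sh2 in RS4;11, a ratio of 0.540. In RCH they were 6.67 ± 0.363% and 2.96 ± 0.064%, a ratio of 0.443, and in SEM 4.68 ± 0.181% and 5.23 ± 0.145%, a ratio of 1.12. In numbers, RS4;11 had a mean of 6131 peaks beyond the limit with NT and 2605 with sh2 (-57.5%), and RCH 3673.5 and 1236.5 (-66.3%), while peaks within it changed by -17.9% and -21.1%. In SEM these changes were 29.1% and 14.9%. Peaks within the limit include those of the 20934 constitutive regions, which have a peak in every list by definition. No such region lies beyond the limit, so the contrast between the changes is partly set by the rule, as are the ratios of shares. The mean log2 ratio of the share, sh2 over NT, was -0.63 ± 0.70 (SD over the lines, n = 3), with p = 0.5 by an exact sign-flip test, two-sided. With 3 lines the smallest p that this test can give is 0.25, so it could not pass 0.05. Taking constitutive regions from the 8 lists of the other lines changed the log2 ratio from -1.17 to -0.97 in RCH. The ratio stayed at -0.89 in RS4;11 and went from 0.16 to 0.14 in SEM.

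List length moved with the share, being shorter with sh2 in RS4;11 and RCH and longer in SEM, and in RCH sh2 the median peak value was lowest of all (5.32 and 5.42, against 6.09 and 6.12 with NT). When each list was reduced to its strongest peaks, equally many for all lists of a line, the shares in RS4;11 were 7.11 ± 0.135% with NT and 4.72 ± 0.010% with sh2, in RCH 5.87 ± 0.021% and 3.36 ± 0.044%, and in SEM 5.12 ± 0.247% and 5.38 ± 0.142%. NT and sh2 still did not overlap in RS4;11 and RCH. In SEM they overlapped, NT library 2 (5.29%) lying above sh2 library 1 (5.28%), and with all 12 lists cut to 40506 peaks the log2 ratio of this line was -0.012. Within-list ranking does not undo a difference in signal over background between samples, and the part of that difference was not tested.

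**Figure D3:**
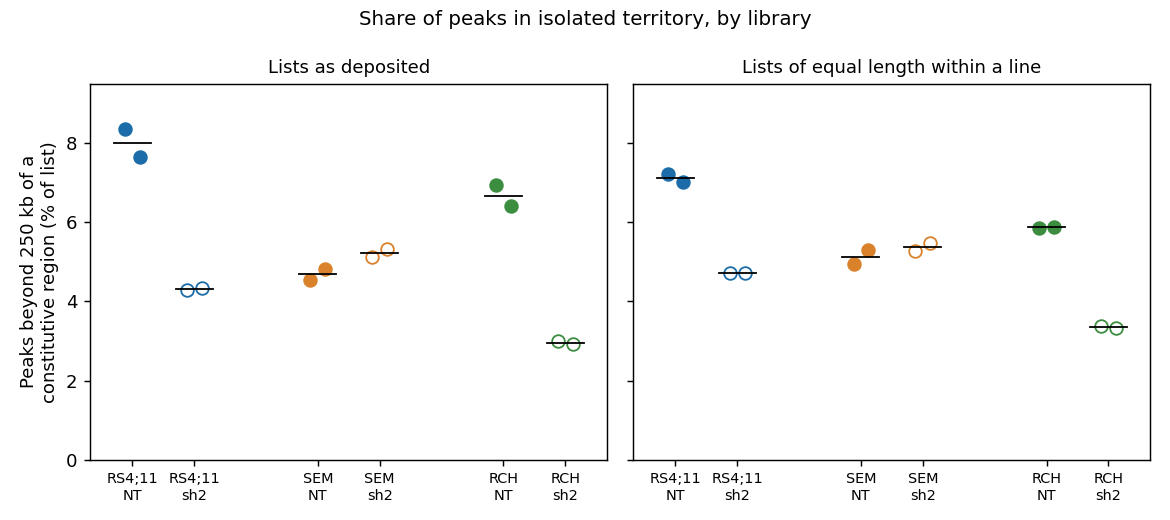
Share of the peaks of a list that lie more than 250 kb from a constitutive region (y axis, %), for each of the 12 libraries (filled points NT, open points sh2, bars the mean of 2 libraries), with lists as deposited (left) and cut to equal length within a line (right). In RS4;11 and RCH both sh2 libraries lie below both NT libraries in each panel, and in SEM they lie above them on the left and overlap on the right.

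Members were then followed into the sh2 lists. In RS4;11, 1806 of the 4127 members open in that line had no peak in either sh2 list (43.8%, exact 95% binomial interval 42.2 to 45.3), 699 had a peak in 1 and 1622 in both (39.3%). Over all NT-open regions of this line, constitutive ones included, 14.8% had no sh2 peak and 74.4% a peak in both sh2 lists. In RCH, 1172 of 2132 members had no sh2 peak (55.0%, interval 52.8 to 57.1) and 492 had both (23.1%), against 18.6% and 66.8% over all NT-open regions of that line. In SEM, 202 of 1714 had none (11.8%, 10.3 to 13.4) and 1251 had both (73.0%), against 4.80% and 87.7%. Intervals here cover counting error only, and regions of 1 library are not independent.

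Members were without a sh2 peak more often than non-isolated regions chosen by the same NT rule. Constitutive regions, which have sh2 peaks by definition, were left out of this comparison. The non-isolated share was 20.2% in RS4;11, 36.1% for RCH and 9.41% for SEM. The ratio of isolated to non-isolated was 2.17, 1.52 and 1.25 in the same order. The mean log2 ratio was 0.68 ± 0.40 (SD over the lines, n = 3), the exact sign-flip p being 0.25, the smallest possible, and it was above 0 in 3 of 3 lines. With lists of equal length the shares without a sh2 peak were 34.3% against 13.5% in RS4;11 and 44.2% against 28.0% in RCH, where 9.82% and 12.3% of all NT-open regions had none. In SEM they were 16.5% (interval 14.8 to 18.3) against 15.5% (15 to 16), whose intervals overlap, and 8.47% over all. Isolation itself was set with the sh2 lists of the same line. When constitutive regions were taken from the 8 lists of the other lines, RS4;11 had a log2 ratio of 1.10, RCH of 0.44 and SEM of 0.20. Leaving out RCH sh2 library 1 lowered it from 0.61 to 0.27 in RCH, and leaving out SEM sh2 library 1 from 0.33 to 0.083 in SEM.

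The share without a sh2 peak was graded with distance in RS4;11 and RCH. In RS4;11 it was 11.0% up to 10 kb from a constitutive region, 16.2% up to 50 kb, 24.4% up to 100 kb and 33.7% up to 250 kb. Among members it was 42.3% below 500 kb, 45.6% from there to 1000 kb, and 55.3% farther out. In RCH the share went from 29.6% in the nearest class to 45.3% between 100 and 250 kb and then stayed between 53.5% and 56.1% in the member classes. In SEM it ran from 8.31% to 12.2% without such a gradation. Each class beyond 1000 kb rested on 138 to 188 regions.

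**Figure D4:**
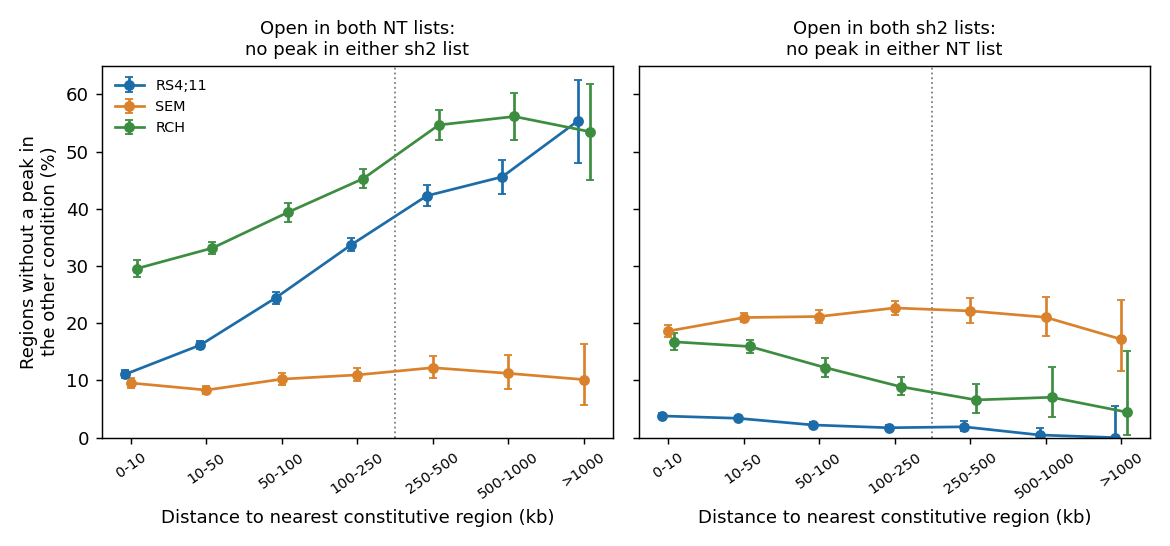
Share of regions without a peak in the other condition (y axis, %, bars are exact 95% binomial intervals) by the distance to the nearest constitutive region (x axis, kb), for regions open in both NT lists (left) and in both sh2 lists (right) of RS4;11, SEM and RCH. Regions right of the dotted line lie beyond 250 kb, where 42.3% to 55.3% of the RS4;11 and 53.5% to 56.1% of the RCH NT-open regions had no sh2 peak.

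By NT peak value, members ranked slightly higher than the regions they were compared with. The median percentile of the NT peak value was 49.9 for members and 46.5 for non-isolated regions in RS4;11, 51.0 and 40.9 in SEM, and 48.4 and 43.8 in RCH. These values describe regions chosen by their NT peaks. A planned exact sign-flip test over the 3 lines gave p = 0.25, the smallest possible, and no conclusion is drawn from it. In RS4;11 this order reversed whichever NT library was left out. Each omission asks for a peak in the 1 NT list left and for constitutive regions in 11 lists. The difference in RS4;11 was then -3.65 points without NT library 1 and -4.27 without NT library 2. In RCH it was 1.41 and -4.21, and in SEM 6.77 and 8.04, in the same order.

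Within each quintile of NT peak value, members still lacked a sh2 peak more often in all lines. In the weakest quintile of RS4;11 the share was 75.2% of 804 members against 39.6% of non-isolated regions, and in the strongest 12.3% of 1013 against 3.74%. In RCH these were 81.8% of 346 against 51.0%, and 26.3% of 562 against 12.7%. In SEM they were 27.0% of 178 against 19.3%, and 2.34% of 555 against 1.07%. With the members' distribution over the quintiles, the ratio of isolated to non-isolated became 2.31, 1.64 and 1.67 for the lines as just listed. In the same order, the ratio with equal lists was 2.82, 1.72 and 1.47.

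**Figure D5:**
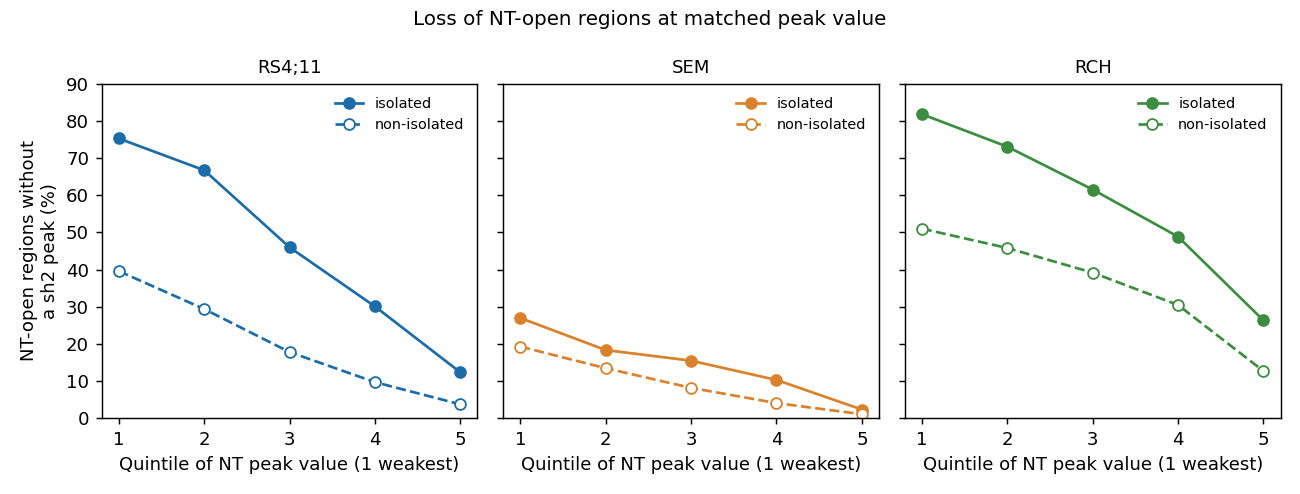
Share of NT-open regions without a sh2 peak (y axis, %) by quintile of the NT peak value within a line (x axis, 1 weakest, 5 strongest), for isolated (filled points) and non-isolated regions (open points). The isolated regions lie higher in each quintile of each line, from 75.2% against 39.6% in the weakest quintile of RS4;11 to 2.34% against 1.07% in the strongest quintile of SEM.

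The mirror of the rule, regions beyond 250 kb open in both sh2 lists of a line, gave the reverse in RS4;11 and RCH only against non-isolated regions. Against all regions open in both sh2 lists, constitutive ones included, the share without an NT peak was similar in RS4;11 and higher in RCH. The mirror took 3202 regions, of which 2719 (84.9%) were also members. In RS4;11, 25 of 1715 had no NT peak (1.46%, interval 0.946 to 2.14), against 3.04% of non-isolated and 1.67% of all regions open in both sh2 lists. In RCH, 40 of 611 had none (6.55%, 4.72 to 8.81), against 14.5% and 4.51%. In SEM, 480 of 2231 had none (21.5%, 19.8 to 23.3), against 20.7% and 11.9%. The mean log2 ratio of isolated over non-isolated was -0.72 ± 0.67 (SD over the lines, n = 3, exact sign-flip p = 0.5). In RS4;11 the direction changed whichever sh2 library was left out. Each omission asks for a peak in the 1 sh2 list left and for constitutive regions in 11 lists. The log2 ratio in RS4;11 was -1.06 with all lists, 0.48 without sh2 library 1 and 0.64 without sh2 library 2. In RCH it was -1.15 with all lists, 0.012 without sh2 library 1 and -0.30 without sh2 library 2. Of the 483 regions open in both sh2 lists of a line that were not members, 372 were open in SEM, 74 in RS4;11 and 57 in RCH, and some in more than 1 line.

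Members that kept a peak in all 4 lists of a line still ranked lower with sh2 in RS4;11 and RCH. In RS4;11 the median change in percentile, sh2 minus NT, was -13.4 points for 1622 such members and -6.77 for non-isolated regions. In RCH it was -12.2 points for 492 members and -9.05 for non-isolated regions, and in SEM 4.93 points for 1251 members and 4.82. Percentiles move with list length. With equal lists the medians were -6.56 against 1.81 points in RS4;11, -5.68 against -1.01 in RCH and 2.36 against -0.21 in SEM. With equal lists, 67.7% of such members of RS4;11 ranked lower with sh2, 62.4% in RCH and 44.3% in SEM, against 44.3%, 52.1% and 50.4% of non-isolated regions. These members started higher, with median NT percentiles of 60.2 against 48.2 in RS4;11, 59.9 against 47.2 in RCH and 57.3 against 48.8 in SEM. With sh2 the medians were 49.2 against 49.6, 50.1 against 47.2 and 59.3 against 48.2. The part of the higher start in the larger drop was not tested.

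Members of RS4;11 lacked a sh2 peak less often the more lines shared them, with intervals that did not overlap, while in RCH the intervals overlapped. In the former the share was 56.6% (interval 54.5 to 58.7) for members NT-open in that line alone, 32.2% for those in 2 lines and 22.9% (19.7 to 26.4) for those in all lines. The median NT percentile of these groups was 38.5, 59.8 and 72.1. In RCH the shares were 57.1% (53.1 to 61.1), 52.4% and 56.5% (52.6 to 60.4), with percentiles of 41.2, 48.4 and 54.7. In SEM they were 19.4%, 10.6% and 9.11%. Non-isolated regions followed the same order at lower levels, with 30.5%, 12.1% and 8.01% in RS4;11, with 39.3%, 32.4% and 38.3% in RCH, and with 18.2%, 7.01% and 5.34% in SEM, so the pattern was not particular to members. Whether the lines differ in this was not tested. Regions NT-open in all lines had to lack a sh2 list, since with a peak in every list they would be constitutive and left out. Regions NT-open in fewer lines had no such condition. For members just short of being constitutive, the missing list was most often an RCH sh2 list. The share of RCH in the class of all lines, and so the contrast with RS4;11, is therefore partly set by the rule.

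Members without a sh2 peak were spread over chromosomes and stretches. In RS4;11 the share of members without a sh2 peak exceeded that of non-isolated regions of the same chromosome on 22 of 22 chromosomes. It ran from 25% on chromosome 22 to 53.1% on chromosome 5. In RCH the share of members was the higher on 21 of the 21 chromosomes with at least 10 members, from 25% on chromosome 19 to 64.9% on chromosome 4. In SEM this held on 14 of 20. Stretches were instead set against the non-isolated share of all chromosomes together. Among 134 stretches with at least 10 members open in RS4;11, the share ran from 0% to 84.6% with a median of 42.5%, and it lay above the 20.2% of non-isolated regions in 120 of them. In RCH 20 of 29 such stretches lay above its 36.1%, with a median of 54.5%. In SEM only 5 of 15 lay above its 9.41%, and the median was 8.33%. Chromosomes and stretches of a library are not independent replicates.

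RS4;11 and RCH shared 1360 members that were NT-open in both lines. Of these, 368 had no sh2 peak in RS4;11, 762 had none in RCH and 264 had none in either. The 264 were 71.7% of the 368 and 34.6% of the 762. Where the first kept a sh2 peak, 50.2% had none in RCH. For 11440 non-isolated regions open in both lines, the same shares were 56.5%, 17.1% and 34.4%. RS4;11 and SEM shared 1205 members, of which 340 had no sh2 peak in RS4;11, 122 had none in SEM and 80 had none in either. The 80 were 23.5% of the 340 and 65.6% of the 122, against 20.0% and 30.3% for 12837 non-isolated regions. SEM and RCH shared 805 members. Of these, 72 had no sh2 peak in SEM, 425 had none in RCH and 43 had none in either, which was 59.7% of the 72 and 10.1% of the 425, against 43.2% and 7.35% for 6972 non-isolated regions.

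Among the 637 members open in both NT lists of all lines, 25 (3.92%) had no peak in any sh2 list, 33 had a peak in 1, 73 in 2, 94 in 3, 239 in 4 and 173 (27.2%) in 5. None could have 6, since such a region would be constitutive. Of the 5491 non-isolated regions open in all NT lists, 51 (0.929%) had no sh2 list, 81 had 1, 261 had 2, 410 had 3, 1981 had 4 and 2707 (49.3%) had 5. The strongest of the 25 lay at chr7:46214733-46215318, at chr2:199498536-199498868 and at chr3:148288676-148289132. That on chromosome 2 had NT values of 9.45 and 8.0 in RS4;11, 7.64 and 6.25 in SEM, and 10.0 and 6.57 in RCH. That on chromosome 3 had 10.6 and 11.1, 7.55 and 7.02, and 4.2 and 6.47 in the same order. Their mean NT percentiles were 58.1 to 67.5, against 96.0 to 97.1 for the 3 strongest regions with 5 sh2 lists.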

How the data were processed

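ATAC-seq peak lists of 6 samples were used, 2 lists per sample, numbered as libraries 1 and 2 in the order of the deposited file numbers. The tools named in the submitters' processing notes are Bowtie2 and MACS2, and the build is hg19. The sources used here do not give versions, settings, read numbers or treatment of duplicates, so depth is unknown. The deposited peak value was taken to be fold enrichment, a ratio of signal to background in the same list. This unit is inferred from the values. Starts are given 1-based.

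Peaks off chromosomes 1 to 22 were left out. Merging, distances and list patterns were computed with Python 3.11.15, numpy 2.4.6, pandas 2.3.3 and scipy 1.17.1, figures with matplotlib 3.10.9. Merging and distances were checked with bedtools 2.31.1 and on simulated lists, where all planted losses were recovered. The members, the lists and the rules for comparison were chosen with earlier results of these data known. Named regions are the farthest, the strongest (by mean percentile) of the fullest stretches, the strongest shared by all lines or found in 1 line, the widest, the strongest with no or most sh2 lists, and those next to the limit. Lines paired NT with sh2, the pairing being the cell line in the sample titles. Planned sequence and motif counts were not run, as no hg19 sequence was used.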

Additional observations from a re-analysis of the deposited data

Results flagged for a closer look

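The share of peaks more than 250 kb from a constitutive region moved in opposite directions between lines in the lists as deposited, where NT and sh2 libraries did not overlap within a line. On the log2 scale, sh2 minus NT, it differed by -0.89 in RS4;11, by 0.16 in SEM and by -1.17 in RCH. The difference between lines was not tested, since each line had 1 sample per shRNA. With lists of equal length within a line, SEM NT library 2 (5.29%) lay above SEM sh2 library 1 (5.28%). With all lists cut to the shortest the SEM value was -0.012, close to no change, against -0.73 in RS4;11 and -0.70 in RCH. The SEM shares were then 6.02 ± 0.054% with NT and 5.97 ± 0.012% with sh2 (SD, n = 2 libraries).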

How the results depend on the processing

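The number of members depended on the rule. It was 14282 with a limit of 100 kb, 1723 with 500 kb, 2053 with constitutive regions from at least 10 of 12 lists, and 11684 where a peak had to cover 50% of a region. The mean log2 ratio of the share of peaks in isolated territory stayed below 0, and the mean log2 ratio for the loss of sh2 peaks above 0, under all alternatives run (-1.03 to -0.36 and 0.47 to 0.89). In SEM the first was -0.012 with all 12 lists cut to the shortest, a setting chosen after seeing the data, like the omission of the chromosome 9 stretch. With only peaks above the median of pooled values (6.37), the log2 ratio for loss in RCH was 0.20. For regions open in sh2 but not NT, SEM gave -0.042 at 500 kb and -0.24 with 10 of 12 lists. With 1 library left out, this ratio ran from -1.26 to 0.64 in RS4;11, -0.022 to 0.28 in SEM and -1.19 to 0.012 in RCH, and the percentile difference from -4.27 to 3.91 in RS4;11 and -4.21 to 4.90 in RCH. Leaving out a library also asks for a peak in only 1 list of its line and shRNA. The part of this looser rule was not tested. Without the pairing by line (no replicate block), the difference of -0.63 in log2 share had p = 0.2 (exact permutation over 6 samples). Depth is unknown, so a missing peak does not show closed chromatin.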

Other observations

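Chromosome X was outside the member rule. Applied there, the same rule would take 489 of 2563 NT-open regions (19.1%), a larger share than on any autosome. Of these, 166 of 428 open in RS4;11 had no sh2 peak (38.8%, exact 95% binomial interval 34.1 to 43.6), 72 of 152 in RCH (47.4%, 39.2 to 55.6) and 14 of 121 in SEM (11.6%, 6.47 to 18.7). The non-isolated shares on chromosome X were 20.9%, 38.1% and 5.08% in the same order. Among regions beyond the limit open in both sh2 lists, 58 of 201 in SEM had no NT peak (28.9%), against 1 of 184 in RS4;11 and 4 of 35 in RCH.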
